A study of Mus musculus with 31 samples.

Results

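The 8 genes described here encode the growth factor IGF1, its receptor IGF1R, the IGF2 receptor IGF2R and 5 of the IGF binding proteins. They were taken as Igf1, Igf1r, Igf2r, Igfbp2, Igfbp3, Igfbp4, Igfbp5 and Igfbp6 from the gene names of the authors' normalized table, which lists 20784 genes, and were matched by Ensembl identifier to the raw counts of 55421 mouse genes. All 8 were found in both tables. The libraries came from 31 single neurons of acute brainstem slices, each drawn into the pipette after patch-clamp recording and amplified by Smart-seq2, a method that copies full-length polyadenylated RNA. The 18 lateral olivocochlear (LOC) cells were red neurons of the lateral superior olive, and the 13 medial olivocochlear (MOC) cells were red neurons recorded in the trapezoid body's ventral nucleus. Every cell of both groups came from mice with a ChAT-IRES-Cre driver and a tdTomato reporter, so red colour marks cells in which the choline acetyltransferase gene is or once was active. The labels call the genotype wild-type and give no age, no animal and no treatment other than RNA-seq after the recording. Because no animal is named, each group counts as 1 sample. No difference was tested, no p-value is given, and every SD is a spread between cells of 1 group.

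IGF1 is a secreted peptide that binds IGF1R, a receptor tyrosine kinase which passes the signal through adaptor proteins to the PI3K, AKT and mTOR branch and to the RAS and ERK branch. IGF2R has no kinase, takes up IGF2 for breakdown and carries lysosomal enzymes. The binding proteins hold IGFs outside the cell and either keep them from the receptor or deliver them to it, until proteases cut them. In the nervous system IGF1 supports growth and survival of neurons, and loss of IGF1 impairs hearing in mice and humans. Microglia are a known source of Igf1 transcripts, and astrocytes are known to express Igfbp2.

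The libraries held 356412 to 1404896 counts in LOC cells (median 768815) and 598028 to 2627174 in MOC cells (median 906622). The limit that a count of 0 allows, taken as 3 counts, was 1.14 to 8.42 counts per 1000000 counts of the library (CPM) in a single cell. Some libraries stood apart from their label. Fewer than 10 reads over the cholinergic genes Chat, Slc18a3 and Slc5a7 were present in LOC cells 7, 9, 14 and 16 and in MOC cells 4, 8, 9, 12 and 13. All 10 oligodendrocyte markers and all 12 microglia markers had reads in each group. Oligodendrocyte markers took 0.0023% to 23.9% of the counts of a cell, and over 5% in 6 LOC and 6 MOC cells. Summed microglia markers were highest in MOC cell 8 (10599 CPM), MOC cell 12 (3546 CPM) and LOC cell 9 (2275 CPM). Values without some of these libraries are given beside the results whose call they change.

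Igf1 and Igfbp5 were higher in LOC cells by the rule used for size, which the other 6 genes did not meet in either direction. By that rule the higher group had to reach a pooled CPM of 2 times the lower, a mean log2(CPM + 1) greater by 1 or more, and detection in 25% or more of its cells. It was met toward LOC by 2 of the 8 members and by 6.07% of the 17754 genes that were detected in 25% or more of either group's cells. Toward MOC it was met by 0 of the 8 members and by 5.67% of those genes. All 8 members passed that 25% filter. Igfbp6 had a pooled ratio of 3.32 toward LOC, but its difference of means, 0.62, fell short of the rule. Their median LOC minus MOC difference of mean log2(CPM + 1) was -0.33, with 3 members above 0 and 5 below, against a median of -0.07 over all genes that passed the filter. The count toward MOC was not stable, since Igfbp2, Igfbp3 and Igfbp4 lay at -0.85, -0.94 and -0.88, just short of the rule, and all 3 met it with pooled counts in place of cell means.

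**Figure D1:**
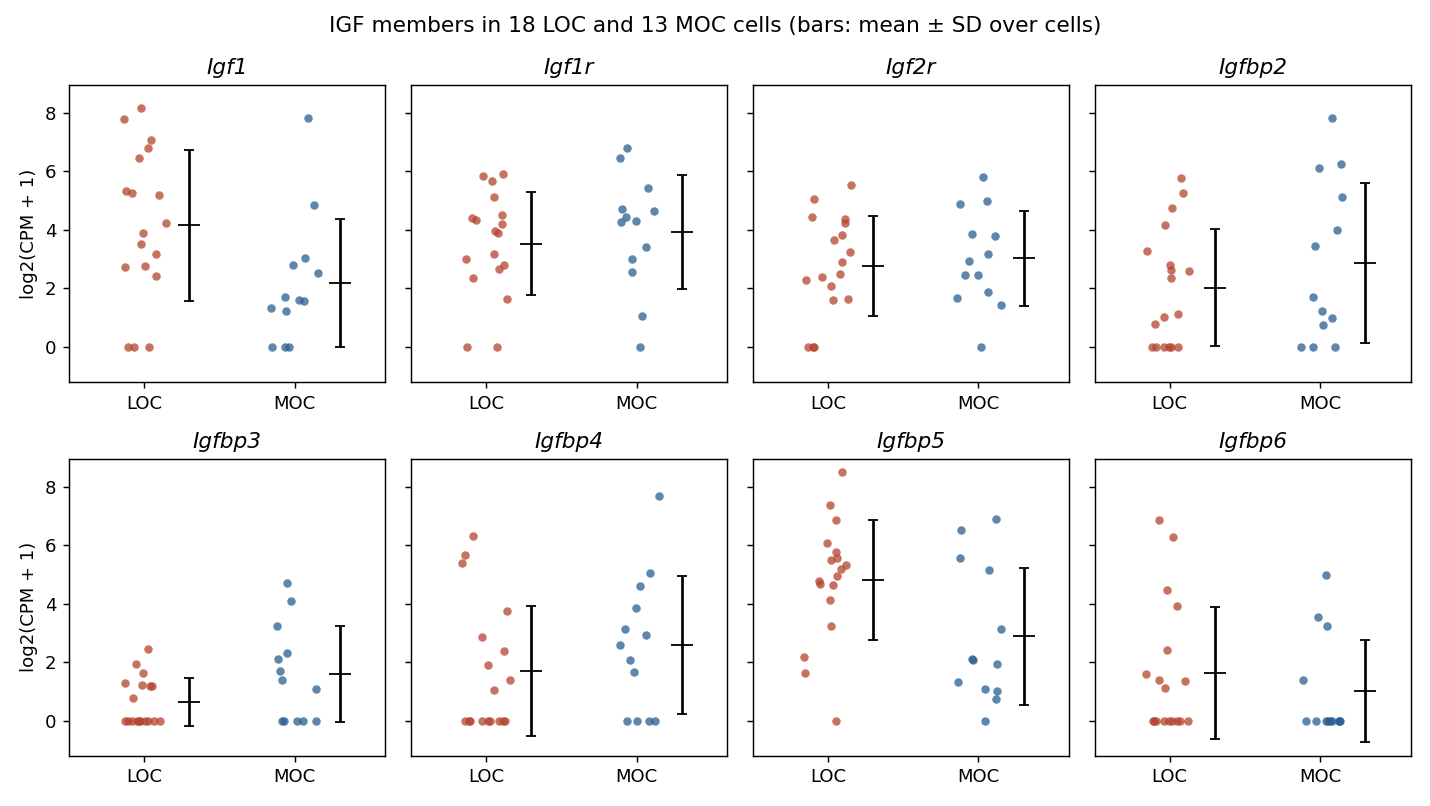
Level of each IGF member as log2(CPM + 1) on the y axis, 1 point per cell, for 18 LOC and 13 MOC cells on the x axis, with the mean and SD over cells as black bars. The clouds of the groups overlap for every gene, and the means differ by more than 1 for Igf1 (4.16 and 2.19) and Igfbp5 (4.80 and 2.89).

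Igf1, the ligand gene, lies on chromosome 10 at 87858265 to 87937042 (plus strand, GRCm38, ENSMUSG00000020053). In LOC cells its level ran from 0 CPM through a median of 15.9 to 284 CPM, and in MOC cells from 0 through a median of 2.07 to 226 CPM. The groups overlapped over their whole range, but 5 LOC cells and 1 MOC cell lay above 50 CPM. The LOC cells were cell 13 (284 CPM), cell 1 (218), cell 18 (135), cell 4 (111) and cell 11 (86.2), and the MOC cell was cell 10 (226). Of the LOC cells, 3 held no read of Igf1, namely cells 8, 14 and 17. In MOC cells 5, 11 and 13 there was likewise no read.

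Pooling the cells gave Igf1 a level of 56.7 CPM for LOC (exact 95% Poisson interval 52.9 to 60.8) and 22.2 CPM for MOC (19.8 to 24.9), a ratio of 2.55. The means of log2(CPM + 1) were 4.16 ± 2.59 (SD, n = 18 cells) and 2.19 ± 2.18 (n = 13 cells), so the difference of 1.96 was smaller than the SD between cells of either group. The medians over cells differed by 2.45. A read was present in 15 of 18 LOC cells (83.3%, exact 95% Clopper-Pearson interval 58.6 to 96.4). Among MOC cells it was 10 of 13 (76.9%, 46.2 to 94.96). At least 5 reads were present in 12 LOC and 4 MOC cells. After thinning every library to 100000 counts, a read remained in 14 LOC and 4 MOC cells.

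A few libraries carried most of the Igf1 counts. LOC cells 13 and 1 gave 50.3% of the LOC counts, and MOC cells 10 and 7 gave 91.7% of the MOC counts. Without LOC cell 13 the LOC level was 43.7 CPM and the ratio 1.97, so that Igf1 no longer met the rule, although the difference of means was still 1.73. Without MOC cell 10 the MOC level was 7.70 CPM and the difference 2.43. Without the libraries over 5% oligodendrocyte markers, which left 12 LOC and 7 MOC cells and took out MOC cells 7 and 10, pooled Igf1 was 81.2 CPM against 1.82 CPM, and the difference was 3.32. MOC cell 10 lay just over that limit, at 5.61%, and had 689 cholinergic reads. The cells kept include LOC cells 7, 14 and 16 and MOC cells 4, 8 and 13, all with fewer than 10 cholinergic reads. In the 14 LOC and 8 MOC libraries with at least 10 cholinergic reads the levels were 64.9 and 31.5 CPM, with a difference of 2.22.

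Igf1 was set beside the summed microglia markers of each cell, and the part of microglia in the Igf1 level of either group was not tested. LOC cell 13, the highest in Igf1, had the lowest summed microglia markers of all 31 libraries (32.4 CPM). LOC cells 4 and 11 had 44.7 and 54.8 CPM of these markers, LOC cell 1 had 117 and LOC cell 18 had 525. MOC cell 8, the highest in microglia markers, had 2.07 CPM of Igf1. Across cells, Spearman's coefficient of Igf1 with the summed microglia markers was -0.41 over the 18 LOC cells and 0.15 over the 13 MOC cells. In MOC cell 7, however, 27.8 CPM of Igf1 stood beside 2164 CPM of microglia markers, with reads of all 12, and 28 cholinergic reads. Their part in the Igf1 level of that cell was not tested. MOC cell 10 had 480 CPM of microglia markers and 689 cholinergic reads. Some other lists had higher coefficients with Igf1 than microglia markers, among them endothelial markers (0.29 in LOC and 0.46 in MOC cells), whose part was not tested. Spearman's coefficient with 7 meningeal fibroblast markers was 0.50 in LOC and 0.52 in MOC cells, and the coefficient with 5 inhibitory neuron markers was 0.17 and 0.62. These lists summed to 1.05 to 434 and 5.28 to 790 CPM for meningeal fibroblasts, and to 0 to 1012 and 10.1 to 2992 CPM for inhibitory neurons, in LOC and MOC cells. LOC cell 13 held the LOC maximum of the inhibitory list. All markers of both lists had reads in each group, but not in each cell. Of the 7 meningeal fibroblast markers, LOC cell 13 had reads of 2, LOC cell 18 of 3 and MOC cell 10 of 1. LOC cells 1, 4 and 11 had reads of 6, 4 and 5. The part of both cell types in the Igf1 level was not tested.

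**Figure D2:**
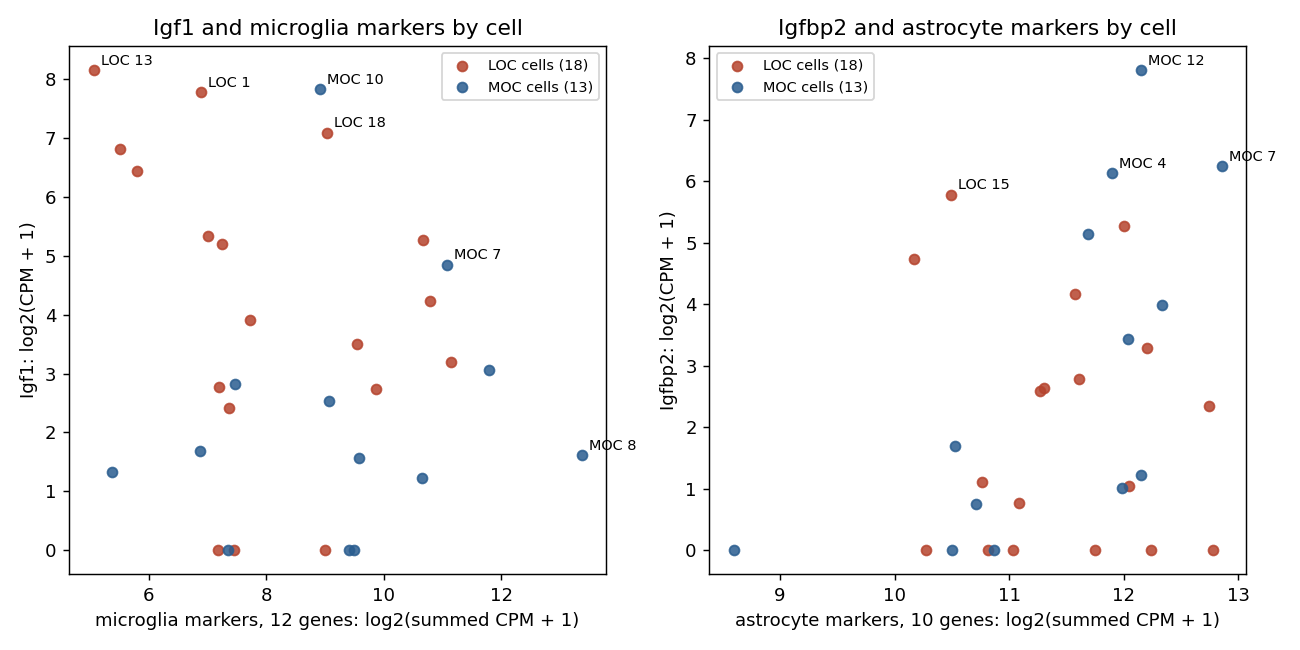
Left, Igf1 against the sum of 12 microglia markers, and right, Igfbp2 against the sum of 10 astrocyte markers, both axes as log2(CPM + 1), 1 point per cell and LOC and MOC in different colours. LOC cell 13, highest in Igf1, lies at the left edge of the microglia axis, and MOC cell 7 lies at the right edge of the astrocyte axis with 74.6 CPM of Igfbp2.

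Igf1 also varied among LOC cells, with coefficients of at most 0.24 with single peptide genes known from these neurons. Over the 18 LOC cells, Spearman's coefficient of Igf1 was 0.24 with Calca, the gene of CGRP, 0.09 with Ucn, the gene of urocortin, 0.08 with Pdyn, the gene of prodynorphin, and -0.22 with Npy, the gene of neuropeptide Y. It was -0.19 with Calcb and 0.11 with Penk. With the sum of these 6 peptide genes it was 0.22, and with the summed cholinergic genes 0.31. The 18 cells include LOC cells 7, 9, 14 and 16, which had fewer than 10 cholinergic reads. Whether Igf1 goes with any of these genes was not tested. LOC cell 15 had 42503 CPM over 6 peptide genes and 4.32 CPM of Igf1. LOC cell 8 had 22479 CPM of peptide genes and no read of Igf1, while LOC cell 18 had 31135 and 135 CPM. These coefficients describe cells that may share an animal, and rest on few reads in many of them.

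Igf1r, the receptor gene on chromosome 7 at 67952827 to 68233668 (plus strand), was read in nearly every cell and differed little between the groups. Its level ran from 0 CPM through a median of 14.3 to 59.3 CPM in LOC cells and from 0 through a median of 19.0 to 110 CPM in MOC cells. The highest values were those of MOC cells 5 and 3 (110 and 86.0 CPM), and LOC cells 8 and 17 and MOC cell 8 held no read. Reads were found in 16 of 18 LOC and 12 of 13 MOC cells. The pooled levels were 19.8 CPM (17.6 to 22.3) and 26.1 CPM (23.5 to 29.0), and the means 3.53 ± 1.77 and 3.93 ± 1.94, a difference of -0.40. The difference ranged from -0.73 to -0.16 when 1 cell was left out, and it was -0.90 in libraries with at least 10 cholinergic reads. Spearman's coefficient of Igf1r with meningeal fibroblast markers was 0.53 in LOC and -0.35 in MOC cells. With inhibitory neuron markers it was -0.06 and -0.71. The part of these cell types in the Igf1r level was not tested.

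Igf2r, on chromosome 17 at 12682406 to 12769664 (minus strand), had the most similar levels in the groups. Cells ran from 0 CPM through a median of 5.58 to 45.5 CPM in LOC and from 0 through a median of 6.69 to 54.7 CPM in MOC. Pooled levels were 10.7 CPM (9.03 to 12.5) and 11.1 CPM (9.45 to 13.1), and the difference of means was -0.26. This difference was 0.19 in libraries with at least 10 cholinergic reads. In LOC cells Spearman's coefficient of Igf2r was 0.64 with meningeal fibroblast and 0.62 with endothelial markers, and in MOC cells it was 0 and 0.02. Their part in the Igf2r level was not tested. Airn, a noncoding RNA known for silencing Igf2r on the paternal chromosome during development, overlaps Igf2r on the opposite strand and held 447 counts over the 31 cells, while Igf2r held 152 in each group. The annotated exons of Airn and Igf2r do not overlap, but the libraries keep no strand.

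Igfbp5, the gene of a binding protein that also attaches to extracellular matrix, differed between the groups about as much as Igf1. Its level ran from 0 CPM through a median of 32.7 to 360 CPM in LOC and from 0 through a median of 3.21 to 117 CPM in MOC. At least 10 CPM were present in 14 of 18 LOC cells but in 4 of 13 MOC cells, namely cells 1, 6, 11 and 12. LOC cell 13, the highest in Igf1, was the LOC cell with no read of Igfbp5. The highest levels were those of LOC cell 15 (360 CPM), LOC cell 18 (163 CPM), MOC cell 1 (117 CPM) and LOC cell 11 (116 CPM), so the ranges overlapped.

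Pooled Igfbp5 was 59.3 CPM for LOC (55.4 to 63.5) and 21.2 CPM for MOC (18.8 to 23.8), a ratio of 2.80. The means were 4.80 ± 2.05 and 2.89 ± 2.34, a difference of 1.91, and the medians differed by 2.99. Reads were present in 17 of 18 and 12 of 13 cells, and at least 5 reads in 15 and 5 cells. LOC cell 15 gave 39.4% of the LOC counts. Without it the LOC level was 38.5 CPM and the ratio 1.82, below the rule, with a difference of 1.69. Without the libraries over 5% oligodendrocyte markers the levels were 82.4 and 19.2 CPM and the difference 2.99, and with at least 10 cholinergic reads it was 1.45. The marker lists of other cell types with the highest Spearman's coefficients with Igfbp5 were meningeal fibroblast markers in LOC cells (0.42), and mural (0.46) and astrocyte markers (0.45) in MOC cells. Their part in the Igfbp5 level was not tested.

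Igfbp2 is the neighbour of Igfbp5 on chromosome 1. It runs from 72824503 to 72852474 on the plus strand and Igfbp5 from 72857932 to 72874884 on the minus strand, so that the genes end 5457 bases apart with no annotated gene between them. Pooled Igfbp2 lay the other way from Igfbp5, at 9.12 CPM for LOC (7.62 to 10.8) and 35.3 CPM for MOC (32.3 to 38.6). Cells ran from 0 CPM through a median of 2.61 to 54.0 CPM in LOC and from 0 through a median of 2.23 to 223 CPM in MOC. The medians over cells differed by 0.03 on the log2 scale, and the pooled difference rested on a few MOC cells.

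MOC cells 7 and 12 gave 78.6% of the MOC counts of Igfbp2, with 74.6 and 223 CPM, followed by MOC cell 4 with 69.1 and MOC cell 10 with 34.2 CPM. MOC cell 7 had the highest summed astrocyte markers of all libraries (7413 CPM), and MOC cell 12 had 4536 CPM. Spearman's coefficient of Igfbp2 with the summed astrocyte markers was 0.69 over the 13 MOC cells and -0.13 over the 18 LOC cells. In MOC cells it was 0.67 with mural, 0.61 with meningeal fibroblast and 0.49 with endothelial markers. All 10 astrocyte markers had reads in each group, with sums of 1154 to 7040 CPM in LOC and 386 to 7413 CPM in MOC, and the part of these cell types in the Igfbp2 level was not tested. The difference of means was -0.85 in all cells, -0.44 without MOC cell 12 and 0.31 without the libraries over 5% oligodendrocyte markers, where pooled levels were 11.1 and 8.48 CPM.

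Igfbp3, which codes for the main IGF carrier of the blood, was barely detected in LOC cells. On chromosome 11 at 7206086 to 7213923 (minus strand), it held 11 reads over all LOC cells, with at most 3 in 1 cell, and 97 reads over MOC cells. The pooled levels were 0.77 CPM (0.39 to 1.38) and 7.11 CPM (5.77 to 8.68). Single LOC cells ran from 0 through a median of 0 to 4.43 CPM and MOC cells from 0 through a median of 1.61 to 25.1 CPM. MOC cells 7 and 12, the same libraries as for Igfbp2, gave 81.4% of the MOC counts. Without MOC cell 7 the MOC level was 2.82 CPM. Detection was 8 of 18 cells for LOC and 8 of 13 for MOC, and the difference of means was -0.94. Without the libraries over 5% oligodendrocyte markers, which include MOC cells 7 and 12, the levels were 0.79 and 1.36 CPM and the difference -0.37. With at least 10 cholinergic reads it was -1.29, past the rule.

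Igfbp4, whose protein mostly restrains IGF action, lies on chromosome 11 at 99041244 to 99054392 (plus strand). In LOC cells it ran from 0 CPM through a median of 0.53 to 78.7 CPM, and in MOC cells from 0 through a median of 5.04 to 206 CPM. Reads were absent from 9 LOC and 4 MOC cells, and the highest levels were those of MOC cell 13 (206 CPM) and LOC cell 16 (78.7 CPM). Both libraries were among those with fewer than 10 cholinergic reads. LOC cell 16 also had the LOC maximum of astrocyte markers (7040 CPM), beside 1778 CPM of microglia and 331 CPM of meningeal fibroblast markers. Only 3 of the 7 meningeal fibroblast markers had reads in that cell. Spearman's coefficient of Igfbp4 with meningeal fibroblast markers was 0.65 in LOC and 0.16 in MOC cells, and with astrocyte markers 0.42 and 0.30. The part of these cell types was not tested. Pooled Igfbp4 was 8.84 CPM for LOC (7.36 to 10.52) and 20.5 CPM for MOC (18.2 to 23.1), or 10.6 CPM for MOC without cell 13. The difference of means was -0.88, and -0.34 in libraries with at least 10 cholinergic reads.

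Igfbp6, whose protein prefers IGF2 over IGF1, lies on chromosome 15 at 102144362 to 102149511 (plus strand). It was read in 9 of 18 LOC and 4 of 13 MOC cells. LOC cells ran from 0 through a median of 0.58 to 116 CPM and MOC cells from 0 through a median of 0 to 30.5 CPM. LOC cell 14, with 0 cholinergic reads, and LOC cell 13 had the highest levels, 116 and 76.5 CPM, and together gave 82.9% of the LOC counts. Pooled levels were 11.9 CPM (10.2 to 13.9) and 3.59 CPM (2.66 to 4.75), but 6.72 and 4.53 CPM in libraries with at least 10 cholinergic reads. The difference of means of 0.62 did not meet the rule, but without the libraries over 5% oligodendrocyte markers it was 1.18, at 18.8 and 4.85 CPM, and did.

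**Figure D3:**
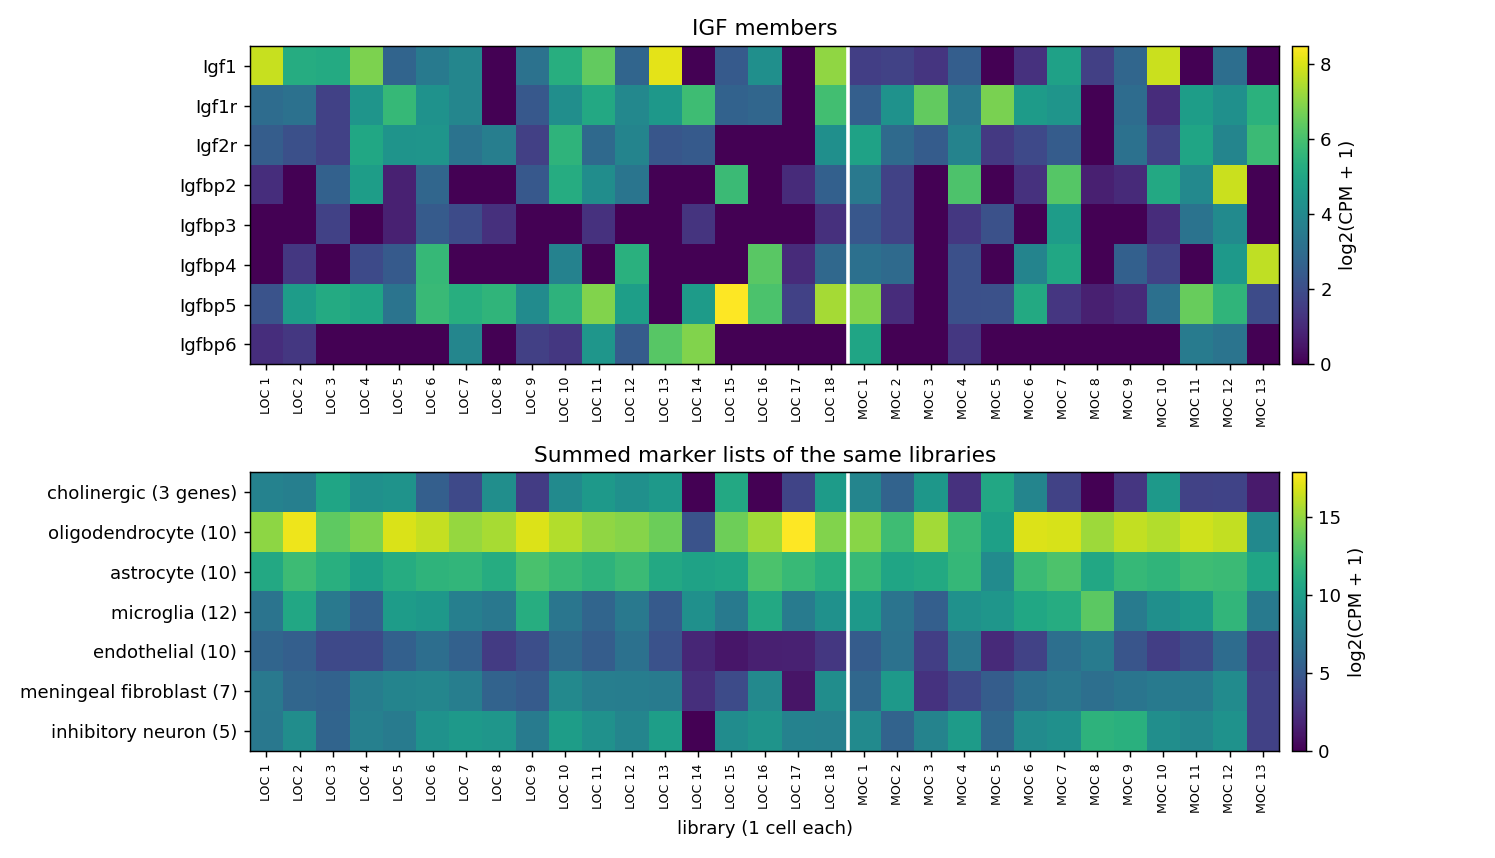
Upper panel, log2(CPM + 1) of the 8 IGF members in each of the 31 libraries on the x axis, LOC left and MOC right of the white line. Lower panel, summed marker lists of the same libraries on their own colour scale, with MOC cells 7 and 12 among the libraries rich in glial markers and high in Igfbp2 and Igfbp3.

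Levels of different members can be set side by side only per length, and were divided by the kilobases of all annotated exons. On this scale Igfbp6 (10.7 pooled CPM per kb) and Igfbp5 (9.88) led in LOC cells, followed by Igf1 (5.73), Igfbp2 (4.94), Igfbp4 (2.001), Igf1r (1.18), Igf2r (1.15) and Igfbp3 (0.25). The counting intervals of neighbours overlapped for Igfbp6 and Igfbp5, for Igf1 and Igfbp2, and for Igf1r and Igf2r. By the mean over cells of log2(CPM per kb + 1) Igfbp5 stood at 2.66 ± 1.51 and Igfbp6 at 1.57 ± 2.21, so the first place of Igfbp6 came from its few high cells. In MOC cells the order was Igfbp2 (19.1 pooled CPM per kb), Igfbp4 (4.65), Igfbp5 (3.53), Igfbp6 (3.23), Igfbp3 (2.27), Igf1 (2.24), Igf1r (1.55) and Igf2r (1.20). Counting intervals overlapped there for Igfbp5 and Igfbp6, Igfbp6 and Igfbp3, Igfbp3 and Igf1, and Igf1r and Igf2r, and by the mean over cells Igf1 differed from Igf1r by -0.39. The means of neighbours differed by less than the SD of either, except for Igf2r and Igfbp3 in LOC cells, whose means differed by 0.62 with SDs of 0.77 and 0.39.

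The mix of binding protein reads varied between cells. LOC cells held reads of 3 to 7 members and MOC cells of 3 to 8, with a median of 6 in both. Per kb, Igfbp5 was the leading binding protein in 8 of 18 LOC cells, Igfbp6 in 4, and Igfbp2 and Igfbp4 in 3 each. Among 13 MOC cells the leader was Igfbp2 in 5, Igfbp4 in 3, Igfbp5 in 2, and Igfbp3 and Igfbp6 in 1 each, while MOC cell 3 had no read of any. Some leaders rested on fewer than 3 reads, namely Igfbp6 in LOC cell 1 and Igfbp2 in LOC cell 17 and MOC cell 8 (1 read each), and Igfbp3 in MOC cell 5 (2 reads). In LOC cells 1 and 17 the longer Igfbp5 held more reads than the leader, 3 and 2. The share of the leader in the summed binding protein level per kb ranged from 40.2% for Igfbp5 in LOC cell 9 to 100% for Igfbp6 in LOC cell 13, and MOC cell 13 was close to that maximum with 98.98% for Igfbp4.

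Ligand and receptor transcripts were found in the same cells more often in LOC than in MOC at a minimum of 5 reads, as counts without a test. Such joint counts depend on those of each gene, and Igf1 reached 5 reads in 12 LOC and 4 MOC cells, Igf1r in 13 and 11. Whether the genes shared cells beyond these single counts was not tested. At least 5 reads of both Igf1 and Igf1r were present in 10 of 18 LOC cells and 3 of 13 MOC cells. Igf1r alone reached 5 reads in 3 LOC and 8 MOC cells, and Igf1 alone in 2 LOC cells and 1 MOC cell. With a minimum of 1 read, both genes were found together in 15 of 18 cells for LOC and 9 of 13 for MOC. Spearman's coefficient of Igf1 with Igf1r was -0.66 over the MOC cells (n = 13 cells) and 0.37 over the LOC cells (n = 18 cells). The MOC value rests on few reads, as Igf1 reached 5 reads in 4 of those cells. In MOC cells the coefficient with inhibitory neuron markers was 0.62 for Igf1 and -0.71 for Igf1r, and their part was not tested. MOC cell 10, with 226 CPM of Igf1, had 1.10 CPM of Igf1r, and MOC cell 5, with 110 CPM of Igf1r, had no read of Igf1.

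**Figure D4:**
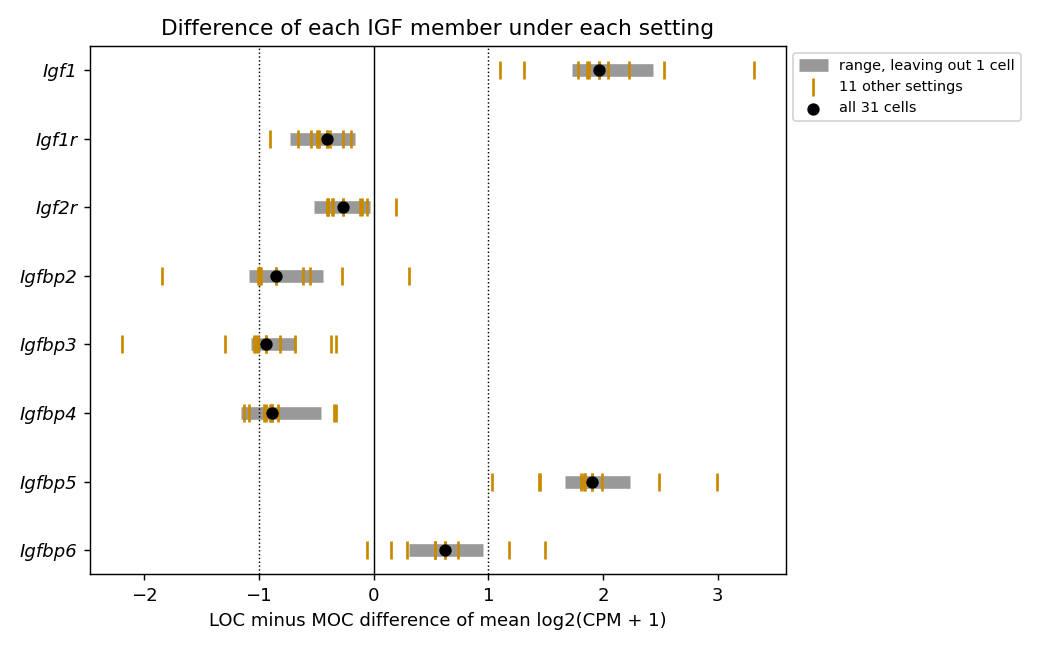
LOC minus MOC difference of mean log2(CPM + 1) for each member on the x axis, with black points for all 31 cells, grey bars for the range when 1 cell is left out and ticks for 11 other settings. Dotted lines mark a difference of 1, and Igf1 and Igfbp5 lie beyond it under every setting shown, from 1.10 and 1.04 upward.

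The rest of the pathway was followed in 70 other genes, of which 69 passed the 25% filter and Igfals, the gene of a blood IGF carrier subunit, did not. The size rule was met toward LOC by 5 genes (7.25% of the 69, against 6.07% of all genes) and toward MOC by 4 (5.80% against 5.67%), shares close to those of all genes. Their median difference was -0.08. Among the other ligands and binding proteins, 4 genes passed the filter, and none met the rule. Their differences of means were all below 0, as were those of 9634 of all 17754 genes, but the pooled level was higher in LOC for Igfbp1 (ratio 3.22), Igfbpl1 (1.54) and Igfbp7 (1.23). A single cell gave most of the LOC reads of each, LOC cell 18 for Igfbp1 (83.8%), LOC cell 17 for Igfbpl1 (68.5%) and LOC cell 2 for Igfbp7 (85.4%). Without that cell the LOC levels were 0.45, 2.18 and 1.69 CPM, below the levels of 0.81, 4.18 and 8.58 CPM over all MOC cells. With the top MOC cell of each gene left out as well, the MOC levels were 0.63, 2.77 and 4.27 CPM. Igf2, the gene of the other ligand, stood at 1.40 CPM (LOC) and 3.23 CPM (MOC).

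Insr, the insulin receptor, which can pair with IGF1R into hybrid receptors, met the rule toward LOC. Its cells ran from 0 through a median of 24.7 to 86.6 CPM in LOC and from 0 through a median of 6.70 to 25.1 CPM in MOC, with pooled levels of 29.0 (26.2 to 31.9) and 7.26 CPM (5.90 to 8.84). The difference of 1.15 was 0.93 to 0.998, short of the rule, without LOC cell 13, LOC cell 14, MOC cell 3 or MOC cell 8. Pappa encodes pappalysin, the protease that cuts the proteins of Igfbp4 and Igfbp5 and so frees IGF. It was read in 17 of 18 LOC and 11 of 13 MOC cells, at medians of 13.6 and 2.95 CPM and at most 74.6 and 38.6 CPM, and pooled levels were 25.4 (22.8 to 28.1) and 6.09 CPM (4.85 to 7.55). The difference of Pappa was 1.70 in all cells, and 2.38 in libraries with at least 10 cholinergic reads.

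In the list of 18 receptor adaptors and brakes, 1 gene met the rule toward LOC (5.56%, against 6.07% of all genes) and 3 toward MOC (16.7%, against 5.67%). Grb10, an adaptor that dampens insulin and IGF1 receptors, differed by 1.41, at pooled levels of 34.9 CPM (LOC) and 15.8 CPM (MOC). MOC cell 3 alone gave 75.0% of its MOC reads. It fell below the rule without LOC cell 3, LOC cell 8 or MOC cell 7, with ratios of 1.87, 1.63 and 1.78. It also missed the rule in libraries with at least 10 cholinergic reads (39.6 and 20.5 CPM) and without those over 5% oligodendrocyte markers (45.3 and 29.99 CPM). Its relative Grb14 lay the other way at 41.0 and 134 CPM (difference -1.41, and -2.65 with at least 10 cholinergic reads). Grb2, the adaptor that links receptors to RAS activation, had 56.5 and 138 CPM (difference -1.37). Socs3, a feedback inhibitor of cytokine and insulin signalling, differed by -2.96, at 10.6 and 53.5 CPM. MOC cell 8 alone gave 44.0% of its MOC reads and LOC cell 5 gave 78.8% of its LOC reads. Without the 3 libraries highest in microglia markers, MOC cell 8 among them, Socs3 was 10.8 and 30.4 CPM. With at least 10 cholinergic reads Grb2 and Socs3 had differences of -0.75 and -1.85 and pooled ratios short of the rule.

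Of 22 genes of PI3K, AKT and mTOR, 2 met the rule toward LOC (9.09%, against 6.07% of all genes) and 1 toward MOC (4.55%, against 5.67%). Tsc1, an inhibitor of mTOR signalling, reached 110 CPM over LOC cells (104 to 115) against 19.6 CPM over MOC cells (17.3 to 22.1), with cell medians of 37.7 and 4.02 CPM. Rps6kb1, the mTOR target S6 kinase, had 63.5 and 15.1 CPM and overlaps Rnft1 on the opposite strand, so some of its reads may belong to that gene. Akt1 had 22.8 and 68.9 CPM (difference -1.13). Without MOC cell 4 its difference was -0.81, and it also missed the rule without LOC cell 10, 13 or 14 or MOC cell 2, between -0.98 and -0.92. In libraries with at least 10 cholinergic reads the difference was -0.90, so that of the 4 pathway genes called toward MOC only Grb14 was also called in that set. None of the 4 FOXO factors, 10 genes of RAS and ERK or 3 IGF2 mRNA-binding proteins met the rule.

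**Figure D5:**
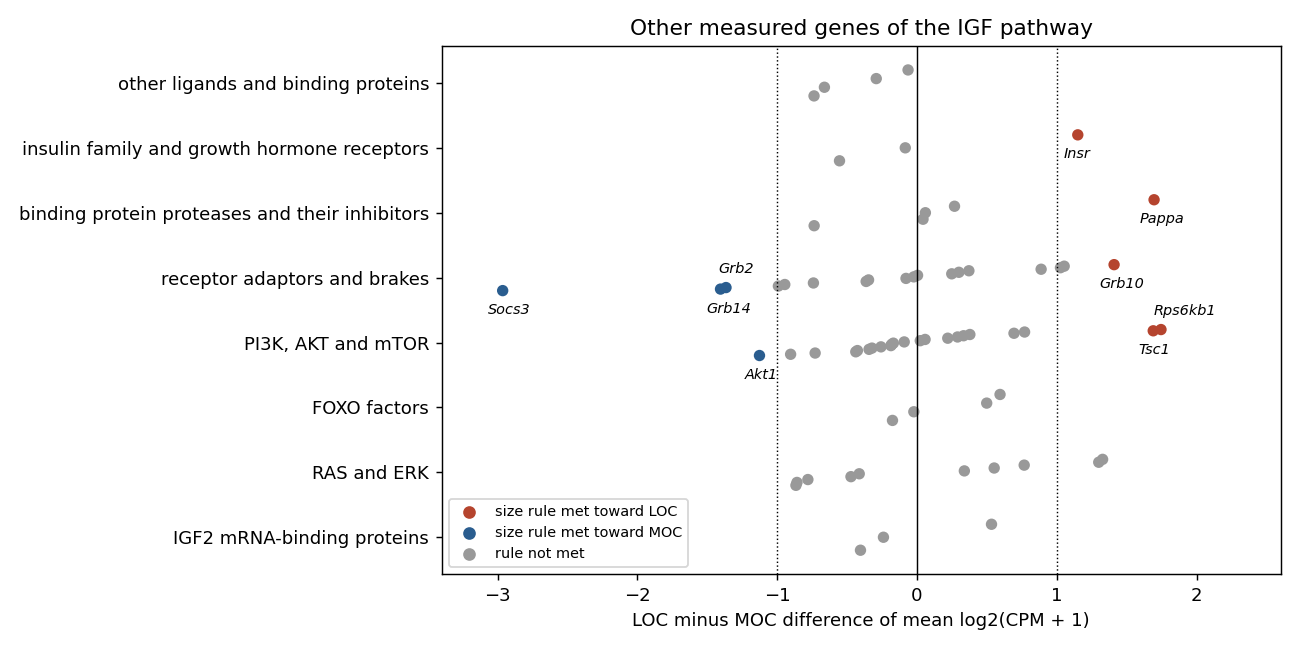
LOC minus MOC difference of mean log2(CPM + 1) on the x axis for 69 other genes of the IGF pathway, 1 point per gene, by list on the y axis, with colour for genes that met the size rule. The 9 named genes run from Socs3 at -2.96 to Rps6kb1 at 1.75.

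The genes whose CPM ranked most like that of a member across the 31 cells were found among the 17754 genes that passed the filter, for the 7 members with a read in at least 50% of cells. For Igf1 they were Wdr13 (Spearman's coefficient 0.74), Rnf8 (0.73) and Amy1 (0.69), the last with reads in 9 cells. Those of Igfbp5 were Tafa5 (0.75), Pcnx3 (0.74) and Dgkz (0.74), and Tafa5 itself stood at 73.3 and 19.2 CPM in the groups. Igf1r came with Ephb6 (0.70), Zfp280d (0.66) and Hspbap1 (0.65), and Igf2r with Bak1 (0.72), Taf4 (0.69) and Cntnap4 (0.68). For Igfbp2 the list was Myorg (0.75), Pole4 (0.70) and Tmed8 (0.70). Igfbp3 had Hps6 (0.72), Insyn2a (0.72) and Plxdc1 (0.71), and Igfbp4 had Pex13 (0.73), Gm37517 (0.70) and Adgrf5 (0.70). These are the highest of many coefficients over 31 cells that pool both groups, and are a description of these libraries.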

How the data were processed

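The authors deposited raw read counts per gene for 31 cells. A second deposited table holds normalized signal values, which its name calls TMM CPM and which equal each raw count times 1 constant per cell. STAR 2.5.2, bcl2fastq, edgeR, limma and DESeq2 are named, per the submitters' processing notes, as are GRCm38 and mm10. Not given in the sources used here: what each tool did, how reads were counted, and with which annotation. Groups came from the sample titles.

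From the raw counts, CPM was computed with the total over 55421 mouse genes, leaving out 19 added sequences (0.017% of counts). Positions, exon lengths and overlaps are from GENCODE M21 (GRCm38) and are counted from 1. With no molecular identifiers in Smart-seq2, 95% intervals and the limit of 3 counts cover counting error only. The log2(CPM + 1) scale understates differences of low genes. The size rule was checked only on simulated counts whose changes were well above its limit. Calls near that limit, and libraries with reads of other cell types, were not covered. Where a group held fewer than 3 counts, 3 counts over the group stood in the ratio. The genes named are the 8 members, the other pathway genes that met the size rule (at most 4 per list, those with the widest difference), the 3 genes most like each member, and Igf2, Igfals, Igfbp1, Igfbp7 and Igfbpl1, which were picked after their values were seen. The members, marker and pathway lists were chosen with earlier results of these data known. Alternatives were pooled counts, a pseudocount of 10, TMM (edgeR 4.0.16), DESeq2 1.42.0 size factors, the authors' values, thinning, other detection filters and sets of libraries left out. R 4.3.3 and Python 3.11.15 were used.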

Additional observations from a re-analysis of the deposited data

How the results depend on the processing

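Igf1 and Igfbp5 met the size rule toward LOC under all 11 alternatives, with differences of 1.10 to 3.32 and 1.04 to 2.99, and each lost it when the LOC cell with the largest share of its counts was left out (cells 13 and 15). Not all of these alternatives were independent. The other detection filters could not change the differences of 1.96 and 1.91. The authors' values, also named TMM CPM, gave 1.88 and 1.84, against 1.86 and 1.83 with TMM sizes. Leaving out 1 cell gave 1 to 2 members toward LOC and 0 to 3 toward MOC, and differences of 1.73 to 2.43 for Igf1, 1.66 to 2.24 for Igfbp5, -1.09 to -0.44 for Igfbp2, -1.07 to -0.68 for Igfbp3 and -1.15 to -0.46 for Igfbp4. With pooled counts 3 members met the rule toward MOC, at -1.84 for Igfbp2, -2.20 for Igfbp3 and -1.13 for Igfbp4, Igfbp6 met it toward LOC at 1.49, and the other pathway genes numbered 8 toward LOC and 7 toward MOC. With a pseudocount of 10 these pathway counts were 2 and 2. Toward MOC, 1 member met the rule with TMM sizes (Igfbp3, -1.03), 2 with DESeq2 size factors (Igfbp2 and Igfbp3, both -1.01), 1 with the authors' values (Igfbp3, -1.04) and 1 in libraries with at least 10 cholinergic reads (Igfbp3, -1.29). DESeq2 size factors gave 3 pathway genes toward LOC and 5 toward MOC, and thinning gave 7 toward LOC and 7 toward MOC. Leaving out libraries over 5% oligodendrocyte markers gave 9 toward LOC and 5 toward MOC, and a difference of 1.18 for Igfbp6, which then met the rule. The share of all calls that went toward LOC was 51.7% with total counts (1078 and 1007 genes) and 38.9% with DESeq2 size factors (844 and 1325 genes). The sign of Igfbp6 turned after thinning (-0.05). The median of the members was -0.50 to -0.03 over the 11 alternatives and -0.62 to -0.15 when 1 cell was left out. No paired analysis was possible because the cell numbers only name libraries and no test was run. Depth limits Igfbp3 and Igfbp6, which stood at or below 3 counts in many cells, and other members too. At least 5 reads were present in 6 LOC and 6 MOC cells for Igfbp2 and in 6 and 7 for Igfbp4. For Igf1 they were present in 12 and 4 cells, and for Igfbp5 in 15 and 5.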
